A study of Mus musculus with 8 samples.

Results

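The genes described here are 38 genes of DNA replication and mitosis, measured by RNA-seq in mesenchymal stem cells (MSCs, stromal cells that can form bone, fat and cartilage) from mouse bone that were kept at 2% oxygen (hypoxia) or at 21% oxygen (normoxia). The genes were chosen by name for their role in the cell cycle, as the rows of the count table that carry these 38 symbols among 53465 rows in all. Each of the 38 passed the filter on low counts, which left 14369 genes tested, so no gene of the list was lost to it. Both groups were wild-type cells of male C57BL/6N mice aged 3 to 5 months, with no transgene or deletion, cultured under 5% CO2. The labels give 4 samples per oxygen level, numbered 1 to 4 in each, and place the sort that purified the MSCs on day 12. The methods describe a sort for cells without CD45 and Ter-119 and with Sca-1 and CD140a, after which one sorted population was divided between the oxygen levels, so both groups had been grown in hypoxia before the division. The comparison asks how the transcripts of cell division differed between MSCs kept in hypoxia and MSCs moved to normoxia.

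A dividing cell first licenses its replication origins by loading the Mcm helicase, then fires them in S phase, and in mitosis condenses, aligns and separates the copied chromosomes. Transcription of these genes rises and falls with the cell cycle. E2F factors drive the replication genes and the entry into S phase, whereas a later group of genes, needed for mitosis, is repressed in resting cells by the DREAM complex, which reads a promoter element called CHR and works beside the CCAAT box bound by NF-Y. In a culture, the summed level of such genes therefore follows how many cells are cycling. In bulk RNA, fewer cycling cells and less RNA per cycling cell cannot be told apart.

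The promoters of 6 genes described below are printed as examples, and their motifs were not tested against the changes. Ccne1 and Rrm2 were higher in normoxia, and Mcm5 was called neither higher nor lower. Top2a, Plk1 and Ube2c separated in opposite directions once same-numbered samples were compared. Each stretch holds the 150 bases before the RefSeq start of the gene, read 5′ to 3′ on the strand of the gene from RefSeq on GRCm38.p6. Capitals mark matches to the CHR element (TTTGAA or TTTAAA), the CCAAT box (CCAAT) or an E2F site (TTTCCCGC, TTTCGCGC, TTTGCCGC or TTTGGCGC), each searched on both strands. TTTAAA reads the same on both strands, and none of these letter strings lies within another.
Ccne1: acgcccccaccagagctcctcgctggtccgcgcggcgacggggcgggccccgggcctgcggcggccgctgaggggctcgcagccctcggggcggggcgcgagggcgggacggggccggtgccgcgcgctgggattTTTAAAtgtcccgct
Rrm2: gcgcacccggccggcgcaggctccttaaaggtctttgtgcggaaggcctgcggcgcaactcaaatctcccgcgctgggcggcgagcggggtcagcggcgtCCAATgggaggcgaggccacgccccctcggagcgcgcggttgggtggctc
Mcm5: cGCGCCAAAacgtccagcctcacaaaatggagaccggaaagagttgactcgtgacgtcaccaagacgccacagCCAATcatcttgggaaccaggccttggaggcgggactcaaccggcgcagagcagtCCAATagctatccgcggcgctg
Top2a: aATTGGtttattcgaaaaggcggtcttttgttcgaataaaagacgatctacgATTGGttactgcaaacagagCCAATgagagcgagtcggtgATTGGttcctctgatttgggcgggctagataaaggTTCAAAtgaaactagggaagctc
Plk1: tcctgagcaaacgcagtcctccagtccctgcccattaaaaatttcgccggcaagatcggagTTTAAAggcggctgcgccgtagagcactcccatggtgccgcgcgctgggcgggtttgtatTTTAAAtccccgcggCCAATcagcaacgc
Ube2c: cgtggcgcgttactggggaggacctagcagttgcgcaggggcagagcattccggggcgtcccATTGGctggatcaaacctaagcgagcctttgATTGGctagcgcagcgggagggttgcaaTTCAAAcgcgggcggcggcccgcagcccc
The stretches lie at chr7:38107491-38107640 on the minus strand (Ccne1), chr12:24708104-24708253 on the plus strand (Rrm2), chr8:75109359-75109508 on the plus strand (Mcm5), chr11:99024190-99024339 on the minus strand (Top2a), chr7:122159285-122159434 on the plus strand (Plk1) and chr2:164769779-164769928 on the plus strand (Ube2c).

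The stretch of Ccne1 held 1 match, a CHR element 15 bases before the start, and that of Rrm2 held 1 CCAAT box at 50 bases. Mcm5 had an E2F site at 149 bases and CCAAT boxes at 77 and 22 bases. The promoters of Top2a and Ube2c had a CHR element close to the start, at 23 and 29 bases, with 4 and 2 CCAAT boxes upstream of it, and Plk1 had CHR elements at 89 and 29 bases and a CCAAT box at 14 bases. A window was matched by symbol for 31 of the 38 genes and not for Mcm4, Gins1, Gins2, Ccne2, Ccna2, Aurkb and Tpx2. Over the 250 bases before the start, a CCAAT box was found in 25 of the 31 (80.6%) against 37.5% of 27025 genes, a CHR element in 15 (48.4%) against 28.1%, and an E2F site in 6 (19.4%) against 2.16%. The genes with an E2F match were Mcm5, Mcm6, Mcm7, Cdc6, Uhrf1 and Cdk1. These shares describe letters in a window and do not show binding.

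Without regard to the replicate numbers, 3 of the 38 genes were higher in normoxia and none was lower. The 3 were Ccne1 and Ccne2, which encode the E-type cyclins that activate Cdk2 at the entry into S phase, and Rrm2, the small subunit of ribonucleotide reductase that makes deoxynucleotides. The call rule was a Benjamini-Hochberg adjusted p under 0.05 over all genes tested, from limma-trend on log2 CPM (library-scaled counts, or CPM, on a log2 scale). Over all 14369 genes the same rule called 34.6%, of which 18.0% were higher and 16.5% lower, while it called 7.89% of the replication and mitosis genes. At an unadjusted p under 0.05, limma-trend gave 4 of the 38, all higher in normoxia, and none lower, beside 44.4% of all genes tested and 21.6% that were lower. No gene was called lower by limma-voom, edgeR or DESeq2 either, and these called 3, 2 and 2 higher. The median log2 change over the 38 genes, normoxia minus hypoxia, was 0.024, with 21 genes above 0 and 17 below, beside a median of 0.0049 over all genes tested. Its sign turned with the method, from -0.018 with limma-voom to 0.11 with library totals alone. Under library totals the calls over all genes also split differently, into 3611 higher and 1575 lower, against 2592 and 2378 with TMM factors. The single changes ran from -0.35 (Plk1) to 0.69 (Ccne2), and the groups did not overlap for 2 of the 38 genes, Ccne1 (higher in normoxia) and Gins2 (lower), against 32.6% of all genes tested.

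**Figure D1:**
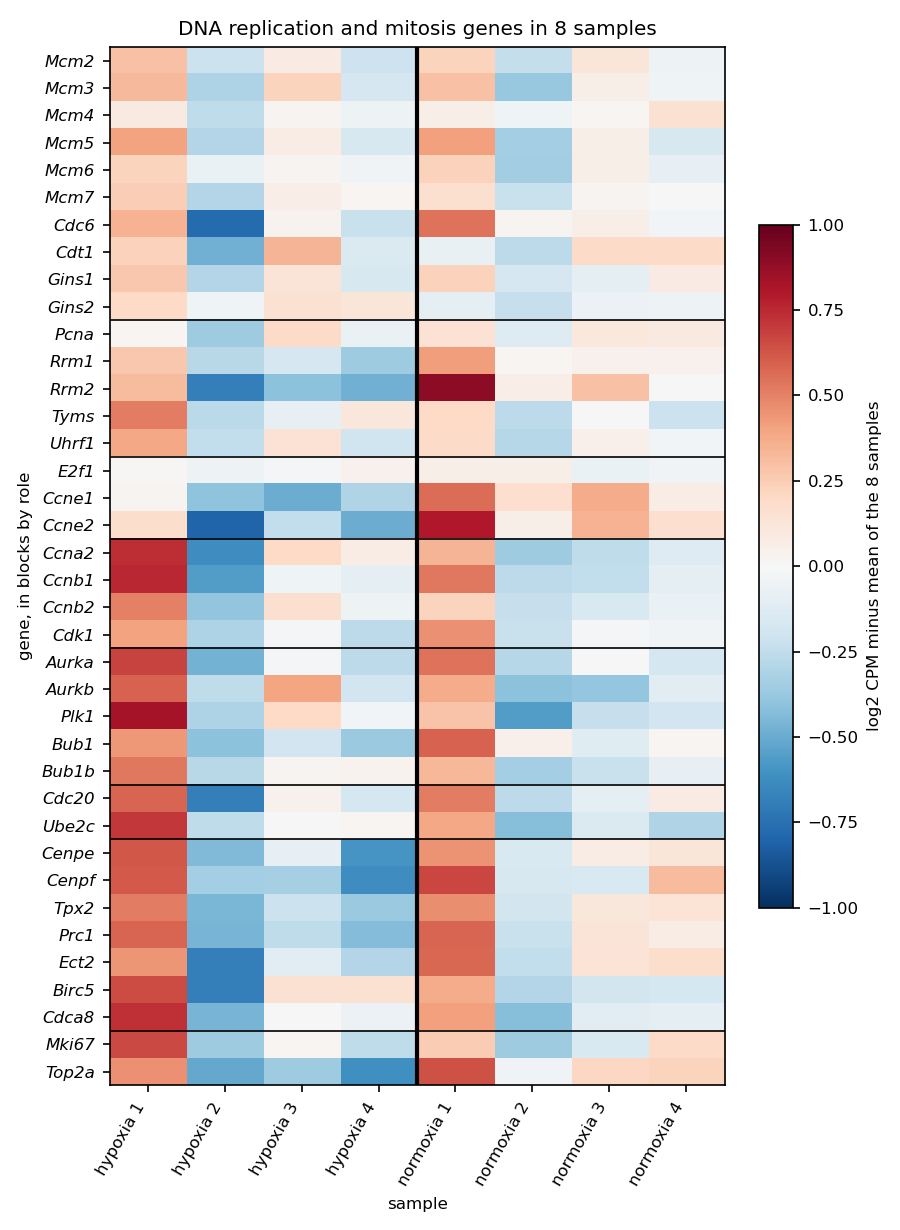
Level of each of the 38 genes in each of the 8 samples, as log2 CPM minus the mean of that gene over the 8 samples (colour scale from -1 to 1), with genes in blocks by role and the black vertical line between hypoxia and normoxia. Sample 1 is the highest of its group for 35 genes in hypoxia and 34 in normoxia, and the difference across the black line is clear to the eye for few genes, among them Rrm2, Ccne1 and Ccne2.

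The count of 3 rested on single libraries. It was 1 without hypoxia sample 2, without hypoxia sample 4, without normoxia sample 1 or without normoxia sample 3, and the gene that was called in each of these fits, as higher, was Ccne1. Of all genes these fits called 17.0%, 14.3%, 14.1% and 13.9% higher. The count was 11 without hypoxia sample 1, all higher in normoxia, against 19.5% of all genes called higher in that fit, and 9 without sample 1 of both groups, all higher, against 17.5%.

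The levels of the 38 genes followed the replicate number more closely than the oxygen level. Sample 1 was the highest of its group for 35 genes in hypoxia and 34 in normoxia, and sample 2 was the lowest for 33 genes in either group. The mean log2 CPM over the 38 genes was 5.05, 4.23, 4.62 and 4.44 in hypoxia samples 1 to 4 and 5.00, 4.42, 4.62 and 4.62 in normoxia samples 1 to 4, which gives 4.58 ± 0.35 and 4.66 ± 0.24 (SD, n = 4). The order of the numbers was thus nearly the same at both oxygen levels, and the groups overlapped. Within same-numbered samples, normoxia minus hypoxia of this mean was -0.057, 0.19, 0.0029 and 0.19 for numbers 1 to 4. Sample 1 exceeded the other samples of its group by a median over the genes of 0.64 in hypoxia, where all 38 genes were above, and of 0.52 in normoxia, where 37 were, whereas the same median over all genes tested was 0.0079 and 0.0016.

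Split by source, the variance of a gene over the 8 samples lay between numbers for 79.2% (median of the 38 genes) and between oxygen levels for 7.58%. Over all genes tested these medians were 31.6% and 38.6%. The number took more of the variance than the oxygen level did for 35 of the 38 genes, against 6923 of the 14369 genes tested. The exceptions among the 38 were Ccne1, Ccne2 and Gins2. The number has more levels than oxygen has, so the shares do not stand on an equal footing. For Mcm5, a subunit of the replicative helicase, 99.8% of the variance lay between numbers. E2f1, which encodes an activating E2F factor, differed from the others in varying little at all, with every sample between 5.00 and 5.13 log2 CPM.

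**Figure D2:**
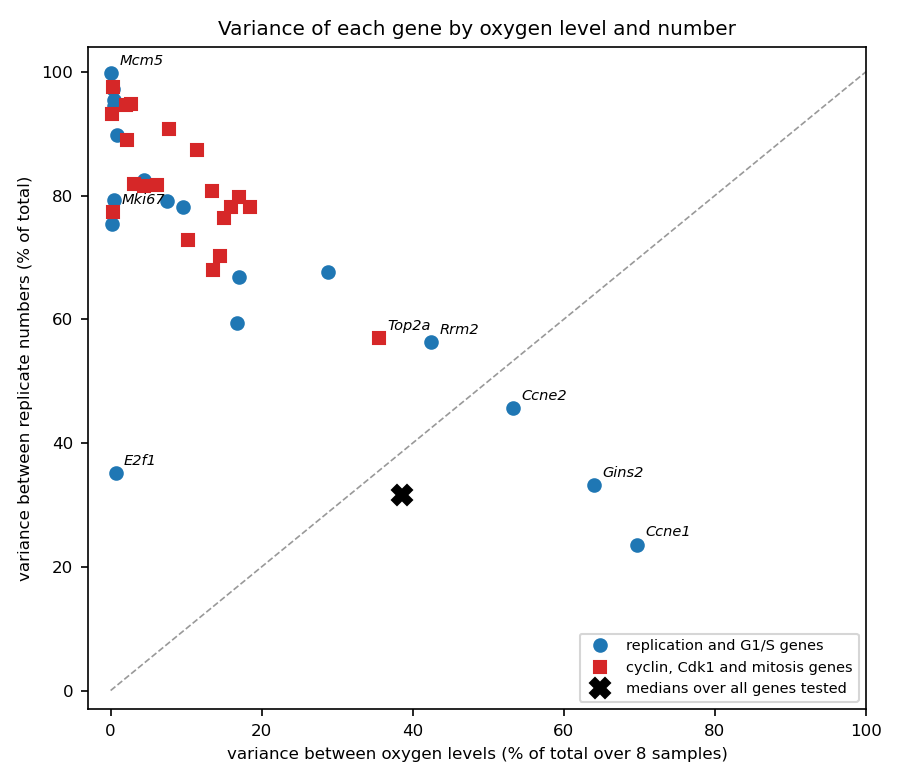
Share of the variance of each gene over 8 samples that lies between oxygen levels (horizontal axis, % of total) and between replicate numbers (vertical axis, % of total), for replication and G1/S genes (blue circles) and cyclin, Cdk1 and mitosis genes (red squares), with the medians over all genes tested as a black cross. Only Ccne1, Ccne2 and Gins2 lie under the dashed line of equal shares, and the cross lies under it too.

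The spread between replicates was correspondingly wide. The median SD of the 38 genes was 0.40 in hypoxia and 0.28 in normoxia on the log2 scale, against 0.17 and 0.13 over all genes tested, and the median SE of their change was 0.19 against 0.11. With the replicate number as a block the median SE fell to 0.083, against 0.092 over all genes. Hypoxia sample 1 had 25132141 counts whereas the other 7 samples had 12898291 to 13433824, so 3 counts, taken as the lowest level resolved, were worth 0.119 CPM there and up to 0.233 CPM elsewhere. Normoxia sample 1 had 13164251 counts, and it was the highest of its group for 34 of the 38 genes. Whether depth had a part in these levels was not tested.

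Macrophage markers differed by replicate number, and the direction of their difference between oxygen levels depended on the measure. All 10 macrophage markers passed the filter, including Ptprc, which encodes the CD45 antigen used to remove blood cells, at 13.0 CPM in hypoxia and 13.8 CPM in normoxia. Their summed level was lowest in sample 1 of either group, at 558 and 647 CPM, and was 761, 1141 and 917 CPM in hypoxia samples 2 to 4 and 770, 1225 and 906 CPM in normoxia samples 2 to 4. Sample 1, the highest for the replication and mitosis genes, was thus the lowest for these markers. Among samples 2 to 4 of either group, the order of the summed level was the same for both lists. By mean log2 CPM this held in hypoxia. In normoxia, sample 4 (4.624) was by that measure above sample 3 (4.618) for the 38 genes, unlike for the markers. Within pairs the mean log2 CPM of the markers was lower in normoxia in all 4, by 0.15, 0.34, 0.22 and 0.38. Their summed level was instead higher in normoxia in pairs 1 to 3 and lower in pair 4. Of the 10 markers 1 was called higher and 1 lower without the block, in the fit that called 34.6% of all genes. With the block 1 was called higher and 6 lower, in the fit that called 46.0% of all genes. Of the erythroid markers 6 of 7 were at 0 in every sample, as were 4 of 6 lymphocyte markers and the endothelial markers Emcn and Cldn5, and summed endothelial markers reached at most 2.65 CPM. All 10 MSC markers were measured, among them the sort markers Ly6a (Sca-1, 434 and 393 CPM) and Pdgfra (CD140a, 175 and 206 CPM in hypoxia and normoxia). Their summed level, most of it Col1a1, was 54583 to 62501 CPM in hypoxia and 35042 to 37595 CPM in normoxia, with no overlap. Of these 10, 3 were called higher and 2 lower without the block, and 4 higher and 6 lower with it, with changes from -0.74 to 0.72. The part of macrophage RNA, library depth or culture in the levels of the replication and mitosis genes was not tested.

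Once same-numbered samples were compared with each other, 12 of the 38 genes were called, 10 higher in normoxia and 2 lower (limma-trend with the replicate number as a block). The 10 were Ccne1, Ccne2, Rrm2, Rrm1, Top2a, Bub1, Cenpf, Tpx2, Prc1 and Ect2, of which the last 5 act at the kinetochore, on the spindle or in cytokinesis, and the 2 lower genes were Plk1 and Ube2c. The same fit called 46.0% of all genes tested, 23.3% higher and 22.7% lower. Of the 12 calls, 11 had the same direction in all 4 pairs, and over the whole list 10 genes were higher and 4 lower in all 4 pairs, 14 of 38, against 54.5% of all genes with 1 direction in every pair. With library totals alone the 14 became 20, an alternative chosen after the data were seen. That scaling also moved the median log2 change of all genes tested from 0.0049 to 0.089. The 20 can therefore not be set beside the 54.5%, which is from the TMM-scaled values.

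**Figure D3:**
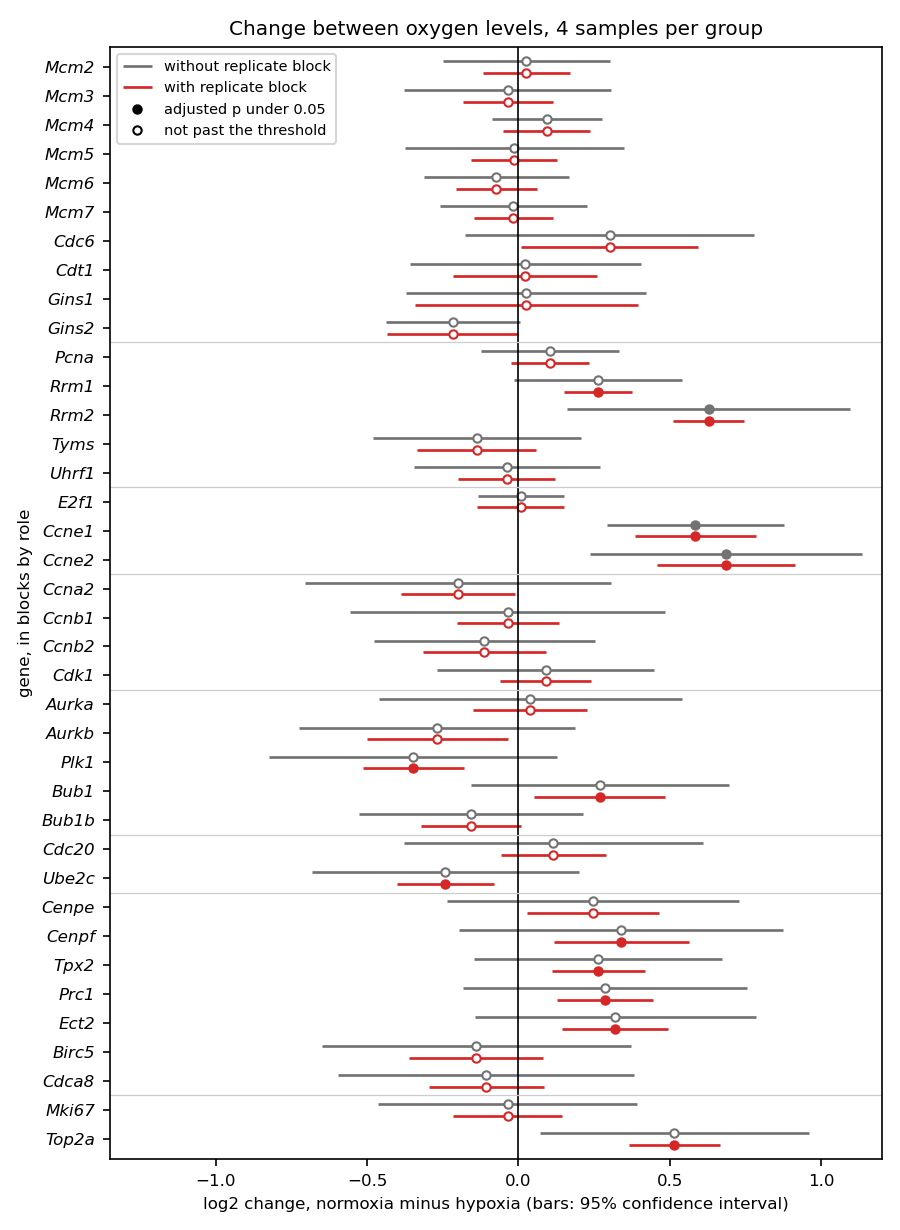
Log2 change, normoxia minus hypoxia, of each of the 38 genes with its 95% confidence interval, without the replicate block (grey) and with it (red), n = 4 per group, where filled points have an adjusted p under 0.05 and the genes stand in blocks by role. The red intervals are the narrower for nearly every gene, and 3 grey points and 12 red points are filled.

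Base composition moved with these calls. The longest transcripts of the 38 genes had a median GC content of 47.8%, against 49.7% for all genes tested, and the 10 genes called higher with the block had 43.3%. Across genes, themselves no independent replicates, log2 change and GC content had a Spearman's rho of -0.52 over the 38 genes and -0.39 over all genes tested. When a trend in GC content and length was removed from each library and the block was kept, 7 of the 38 genes were called higher and 4 lower, beside 21.7% and 21.5% of all genes and 43.2% in all. Of the 12 calls 6 remained in the same direction, namely Ccne1, Ccne2, Rrm2, Top2a, Tpx2 and Plk1. Cdc20 and E2f1 were added as higher and Mcm6, Tyms and Ccna2 as lower. Without the block, the correction left 1 call, Ccne1, beside calls for 4238 of the 14353 genes in that fit.

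Among the genes that start S phase, Ccne1 (ENSMUSG00000002068, chr7:38097984-38107534) had the firmest change. It measured 3.97, 3.55, 3.45 and 3.65 log2 CPM in hypoxia samples 1 to 4 and 4.50, 4.12, 4.32 and 4.02 in normoxia samples 1 to 4. Every normoxia sample lay above every hypoxia sample. The change was 0.58 on the log2 scale (SE 0.13, n = 4 per group), a 1.50-fold higher level in normoxia with an adjusted p of 0.0057 in limma-trend, and it passed the threshold in every alternative fit and without any single sample. Within pairs the difference was 0.53, 0.57, 0.87 and 0.37.

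Its paralog Ccne2 (ENSMUSG00000028212, chr4:11191351-11204779), whose values and those of Rrm1 were picked for printing after they were seen, measured 3.41, 2.44, 2.99 and 2.74 log2 CPM in hypoxia and 4.04, 3.29, 3.58 and 3.41 in normoxia. Hypoxia sample 1 reached the range of the normoxia samples, so the groups overlapped, but each normoxia sample was above its same-numbered partner by 0.59 to 0.85. The change was 0.69 (SE 0.21, limma-trend adjusted p = 0.023). The adjusted p rose above the threshold without hypoxia sample 2 or 4 or normoxia sample 1 or 3, to between 0.051 and 0.068, and to 0.15 with the GC and length trend removed and no block (0.45). E2f1, in contrast, measured 5.08, 5.02, 5.05 and 5.11 log2 CPM in hypoxia and 5.13, 5.13, 5.00 and 5.04 in normoxia. The groups interleaved, and the change was 0.0076 with a 95% confidence interval from -0.13 to 0.15. With block and GC correction the change of E2f1 was 0.19, and it was called higher (limma-trend adjusted p = 0.020).

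Of the 10 licensing and helicase genes none was called by limma-trend with or without the block, by edgeR or by DESeq2. Limma-trend called 34.6% of all genes tested without the block and 46.0% with it. None of the 10 had an unadjusted p under 0.05 without the block, against 44.4% of all genes. With block and GC correction Mcm6 alone was called, as lower (-0.17, limma-trend adjusted p = 0.021). Mcm2 to Mcm7 form the ring that unwinds DNA, Cdc6 and Cdt1 load it on origins, and Gins1 and Gins2 belong to the complex that activates it. Mcm5 (ENSMUSG00000005410, chr8:75109569-75128439) measured 5.38, 4.69, 5.06 and 4.82 log2 CPM in hypoxia samples 1 to 4 and 5.39, 4.64, 5.04 and 4.82 in normoxia. Its levels differed by number and were nearly identical within a number, with pair differences from -0.046 to 0.0067. The change was -0.014 (95% confidence interval from -0.38 to 0.35, and from -0.16 to 0.13 with the block). The other Mcm genes lay between -0.073 (Mcm6) and 0.094 (Mcm4), Cdc6 was at 0.30, Cdt1 at 0.022 and Gins1 at 0.026, and the signs of Mcm2, Mcm3, Mcm4, Mcm5, Mcm6, Mcm7, Cdt1 and Gins1 turned under at least 1 scaling or test.

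Gins2 measured 3.57, 3.33, 3.53 and 3.50 log2 CPM in hypoxia and 3.28, 3.15, 3.31 and 3.32 in normoxia. All 4 hypoxia samples lay above the normoxia samples, by very little between hypoxia sample 2 and normoxia sample 4. The change was -0.22 (SE 0.10) and missed the threshold in limma-trend both without the block (adjusted p = 0.12) and with it (adjusted p = 0.094).

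Among the 5 genes of the fork and of nucleotide supply, both subunits of ribonucleotide reductase stood out. Rrm2 (ENSMUSG00000020649, chr12:24708241-24714146) measured 7.03, 6.03, 6.29 and 6.23 log2 CPM in hypoxia and 7.60, 6.78, 7.01 and 6.71 in normoxia. Hypoxia sample 1 overlapped the normoxia samples, while each pair differed in the same direction, by 0.58, 0.75, 0.71 and 0.48. The change was 0.63 (SE 0.22), a 1.54-fold higher level, with an adjusted p of 0.040 in limma-trend and 4.8e-09 with the block. Without the block the adjusted p was 0.053 in edgeR, 0.11 in DESeq2, 0.080 after the GC and length correction and 0.055 without the filter on low counts. It rose above the threshold without hypoxia sample 2, 3 or 4 and without normoxia sample 1 or 3, where it lay between 0.075 and 0.11.

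Rrm1, the large subunit, measured 7.08, 6.53, 6.64 and 6.45 log2 CPM in hypoxia and 7.22, 6.83, 6.85 and 6.85 in normoxia. Only hypoxia sample 1 reached into the normoxia range. The change was 0.26 (SE 0.13) and was called with the block (adjusted p from limma-trend 0.00037), unlike without it (0.13). With block and GC correction it was 0.074 and uncalled. Uhrf1, which carries maintenance methylation to new DNA, measured 5.18, 4.54, 4.93 and 4.59 log2 CPM in hypoxia and 4.98, 4.50, 4.84 and 4.76 in normoxia. Its groups interleaved, at a change of -0.039. Pcna, the sliding clamp, and Tyms, which makes thymidylate, were at 0.10 and -0.14, neither called without the GC correction. Per length of the longest transcript, averaged over all samples, Rrm2 and Pcna had the highest levels of the list, at 50.4 and 41.9 CPM per kb, and Cenpf and Cdc6 the lowest, at 1.88 and 1.3 CPM per kb.

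**Figure D4:**
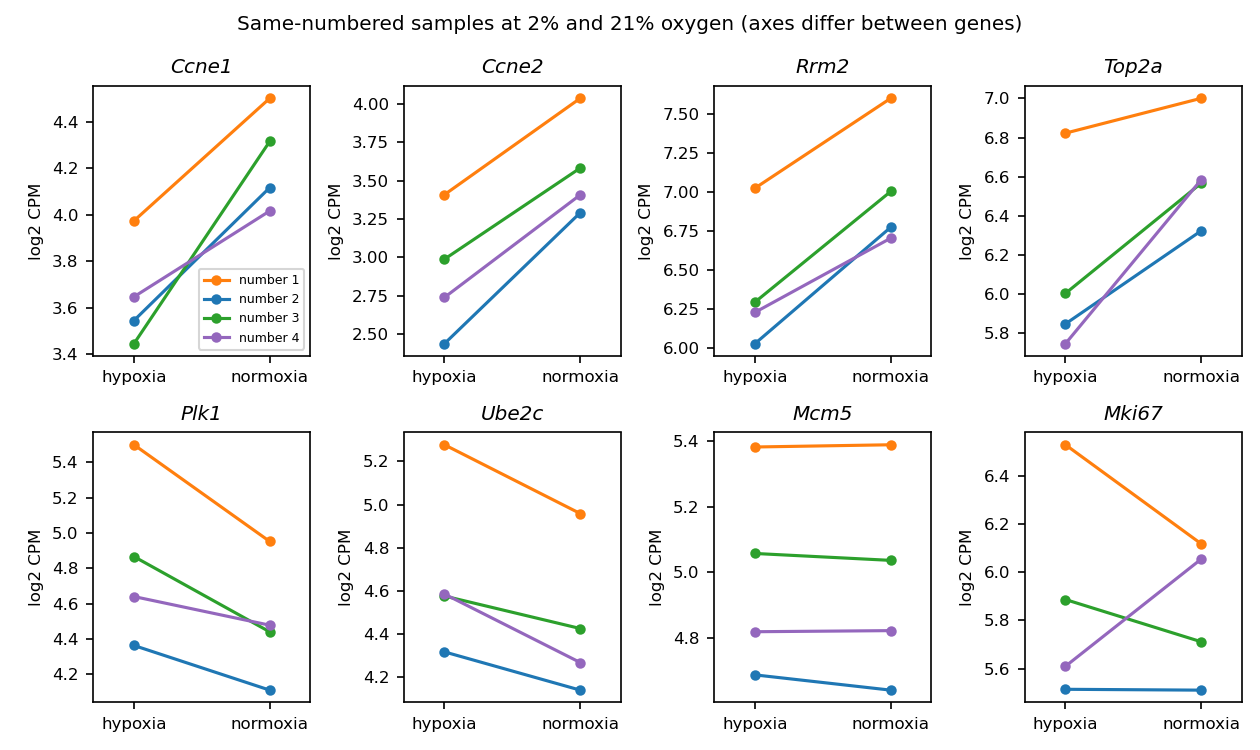
Levels of 8 genes in log2 CPM (vertical axes, which differ between panels) in hypoxia and normoxia, each line joining the 2 samples of the same number, 1 to 4. All 4 lines rise to normoxia for Ccne1, Ccne2, Rrm2 and Top2a, all 4 fall for Plk1 and Ube2c, those of Mcm5 are flat, and those of Mki67 cross.

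The cyclins that carry the cell from S phase into mitosis were called by limma-trend neither with nor without the block. None of the 4 genes had an unadjusted p under 0.05 without it. Of all genes tested, limma-trend called 46.0% with the block and 34.6% without it, and 44.4% had an unadjusted p under 0.05 without it. Ccna2, the A-type cyclin, measured 5.67, 4.31, 5.13 and 5.01 log2 CPM in hypoxia and 5.27, 4.57, 4.68 and 4.80 in normoxia. The lowest and the highest value were both in hypoxia, and pair 2 went against the other pairs. The change was -0.20 (SE 0.23), and Ccna2 was called lower by edgeR with the block and by limma-trend with block and GC correction.

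Ccnb1, the mitotic B-type cyclin, measured 5.74, 4.42, 4.94 and 4.89 log2 CPM in hypoxia and 5.51, 4.72, 4.74 and 4.89 in normoxia. The groups overlapped over most of their range, and the change was -0.035 (95% confidence interval from -0.56 to 0.49). Ccnb2 was at -0.11 and Cdk1, the kinase that these cyclins activate, at 0.089.

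The 5 mitotic kinases went both ways. Plk1 (ENSMUSG00000030867, chr7:122159439-122169873), a kinase of mitotic entry and spindle assembly, measured 5.50, 4.36, 4.87 and 4.64 log2 CPM in hypoxia and 4.95, 4.11, 4.44 and 4.48 in normoxia. The groups overlapped, whereas within pairs normoxia was lower by 0.55, 0.25, 0.43 and 0.16. The change was -0.35 (SE 0.22), with an adjusted p of 0.25 in limma-trend, 0.0010 with the block and 0.041 with block and GC correction.

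Aurka, a centrosome kinase, measured 4.65, 3.51, 3.95 and 3.72 log2 CPM in hypoxia and 4.52, 3.69, 3.97 and 3.80 in normoxia. Number 1 was far above the rest at both oxygen levels, and the change was 0.039 (95% confidence interval from -0.46 to 0.54). Bub1, a checkpoint kinase, was at 0.27 and was called with the block (limma-trend adjusted p = 0.041), while the related Bub1b was at -0.16 and not called. Aurkb, the kinase of the chromosomal passenger complex, was at -0.27 and was called lower by edgeR with the block but not by limma-trend with it (adjusted p = 0.055).

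Cdc20 and Ube2c serve the anaphase promoting complex that marks cyclin B for destruction, and only Ube2c had the same direction in all 4 pairs. Ube2c (ENSMUSG00000001403, chr2:164769898-164778822) measured 5.28, 4.32, 4.58 and 4.59 log2 CPM in hypoxia and 4.96, 4.14, 4.43 and 4.27 in normoxia. The groups overlapped, and each normoxia sample was below its partner, by 0.15 to 0.32. The change was -0.24 (SE 0.20), with an adjusted p of 0.39 in limma-trend, 0.013 with the block and 0.31 with block and GC correction.

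Cdc20 measured 5.51, 4.24, 4.97 and 4.75 log2 CPM in hypoxia and 5.44, 4.66, 4.83 and 5.00 in normoxia. Pairs 1 and 3 fell and pairs 2 and 4 rose. The change was 0.12 (SE 0.23), uncalled with the block and called higher only when the GC correction was added to it.

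The 7 genes of the kinetochore, the spindle and cytokinesis held 4 of the 12 calls made with the block, all higher in normoxia. That fit called 46.0% of all genes tested, 23.3% of them as higher. Without the block none of the 7 was called. With block and GC correction 1 was, in the fit that called 43.2% of all genes. Ect2, which activates RhoA for the cleavage furrow, measured 4.79, 3.67, 4.25 and 4.06 log2 CPM in hypoxia and 4.92, 4.10, 4.49 and 4.53 in normoxia. The groups overlapped, but normoxia was higher in all 4 pairs, by 0.13 to 0.47. The change was 0.32 (SE 0.21), with an adjusted p of 0.28 in limma-trend and 0.0034 with the block. Cenpf (0.34), a kinetochore protein, Prc1 (0.29), which bundles the central spindle, and Tpx2 (0.26), a spindle assembly factor, were also called with the block, and Tpx2 alone of these 4 was called with the GC correction too. Tpx2 was lower in normoxia in pair 1, at -0.052. Cenpe, a kinetochore motor, was at 0.25 with an adjusted p of 0.060 with the block.

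The passenger complex subunits Birc5 and Cdca8 were at -0.14 and -0.11. Cdca8 measured 4.75, 3.56, 4.03 and 3.96 log2 CPM in hypoxia and 4.43, 3.60, 3.91 and 3.93 in normoxia. Hypoxia sample 1 was the highest and hypoxia sample 2 the lowest of all 8, and the 95% confidence interval of the change ran from -0.60 to 0.38.

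The 2 genes of chromosome structure, both widely used as marks of proliferation, differed from each other. Top2a (ENSMUSG00000020914, chr11:98992943-99024189), the topoisomerase that untangles sister chromatids, measured 6.82, 5.85, 6.0 and 5.75 log2 CPM in hypoxia and 7.0, 6.32, 6.57 and 6.58 in normoxia. Only hypoxia sample 1 overlapped the normoxia samples, and pairs differed by 0.18, 0.48, 0.56 and 0.84. The change was 0.51 (SE 0.20), a 1.43-fold higher level that missed the threshold in limma-trend (adjusted p = 0.070) and passed it with the block (3.5e-06) and with block and GC correction (8.1e-05, at 0.33). Without the block it also passed under library totals alone (0.031) and without hypoxia sample 1 (0.00057, at 0.75).

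Mki67, which encodes the Ki-67 antigen of cycling cells, measured 6.53, 5.51, 5.89 and 5.61 log2 CPM in hypoxia and 6.12, 5.51, 5.71 and 6.05 in normoxia. The pairs differed by -0.41, -0.0035, -0.18 and 0.44, so they split in direction. The change was -0.036, with a 95% confidence interval from -0.46 to 0.39 without the block and from -0.22 to 0.14 with it.

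Other genes of the same machinery, from lists that leave out the 38, are given as counts with no test. Of 49 further replication genes 6 were higher and 2 lower, with a median change of 0.13, and of 68 further mitosis genes 12 were higher and 3 lower, with a median of 0.14. With the block these counts were 16 and 4, and 23 and 9. The 34.6% and 46.0% of all genes called without and with the block are the background to both. The calls among further replication genes, 8 in all, were 13 without hypoxia sample 1 and 5 without hypoxia sample 3. Those among further mitosis genes, 15 in all, were 26 without hypoxia sample 1, 9 without hypoxia sample 3 and 8 without normoxia sample 4. The calls over all genes moved as well, from 4970 of 14369 with every sample kept. They were 5423 of 14616 without hypoxia sample 1, 3838 of 14596 without hypoxia sample 3 and 4173 of 14601 without normoxia sample 4.

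Among the replication genes, Wdhd1 (0.75), an anchor of the polymerase at the fork, Topbp1 (0.56), which acts in origin firing and in the checkpoint, and Orc2 (0.42), of the origin recognition complex, had the largest rises among the genes past the threshold. The falls past it were Pold2 (-0.34) and Pold1 (-0.29), subunits of polymerase delta. With GC correction and block, Wdhd1, Topbp1 and Orc2 remained called (0.62, 0.44 and 0.26) and Pold2 and Pold1 did not (-0.11 and -0.089).

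Among the mitosis genes, Hmmr (0.93), which binds spindle microtubules, Smc2 (0.89), the core of condensin, and Kif20b (0.87), a kinesin of late mitosis, had the largest rises among the genes past the threshold. Smc2 measured 4.98, 4.40, 4.32 and 4.10 log2 CPM in hypoxia and 5.63, 5.09, 5.38 and 5.26 in normoxia, with no overlap. The falls past it were Foxm1 (-0.46, limma-trend adjusted p = 0.0499), a transcription factor of the mitotic genes, Cdc25b (-0.38), the phosphatase that activates Cdk1, and Ncaph2 (-0.24), of condensin II. Foxm1 measured 5.26, 4.64, 4.62 and 4.61 log2 CPM in hypoxia and 4.70, 4.03, 4.39 and 4.19 in normoxia, so that normoxia sample 1 alone lay within the hypoxia range. By role, the 25 further genes of spindle and cytokinesis had 6 higher and none lower (14 and none with the block, 13 and 1 with block and GC correction), and the 11 genes of mitotic entry had none higher and 2 lower (none and 3 with the block). The 18 kinetochore and checkpoint genes had 3 higher and none lower (5 and 2 with the block), and the 14 genes of condensin, cohesin and separation had 3 higher and 1 lower (4 and 4). Called in all were 24.0%, 18.2%, 16.7% and 28.6% of these groups without the block, each below the 34.6% of all genes tested. With the block, spindle and cytokinesis (56%) and condensin, cohesin and separation (57.1%) lay above the 46.0% of all genes tested. Mitotic entry and kinetochore and checkpoint lay below it. Of all genes tested, the fit with the block called 23.3% higher and 22.7% lower. At an unadjusted p under 0.05, limma-trend gave no lower gene among the 25, no higher gene among the 11 and 1 lower gene among the 18.

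**Figure D5:**
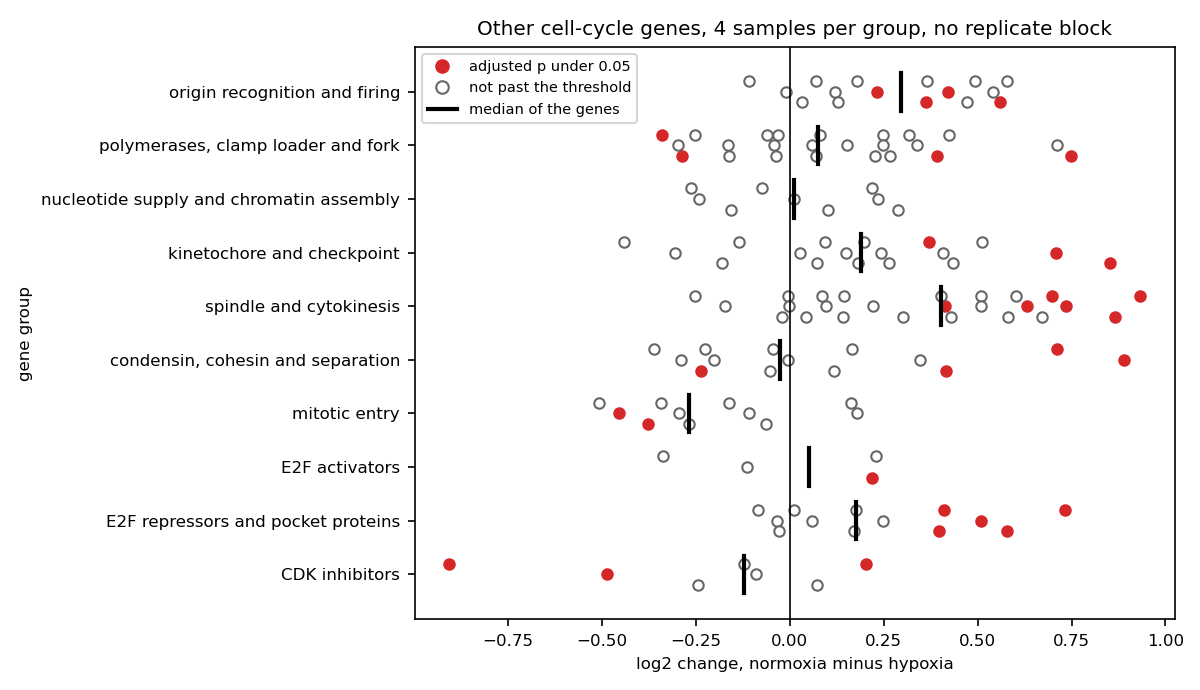
Log2 change, normoxia minus hypoxia, of further cell cycle genes without the replicate block, 1 point per gene in rows by group, where red points have an adjusted p under 0.05, open points do not, and black bars mark the median of each row. The row of spindle and cytokinesis has 6 red points, all to the right of 0, and the row of mitotic entry has 2, both to the left.

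The regulators of these promoters were measured too. Of 17 E2F and DREAM regulators 6 were higher and none lower without the block (8 and none with it, 6 and 1 with block and GC correction), at a median of 0.18. These calls were 35.3% and 47.1% of the list, close to the 34.6% and 46.0% of all genes tested, and no lower gene had an unadjusted p under 0.05 in limma-trend. Lin54 (0.73) and Lin9 (0.58), subunits of the core that DREAM and the activating MuvB complexes share, and E2f6 (0.51), a repressor, had the largest rises among those past the threshold. Lin54, which contacts the CHR element itself, measured 3.09, 2.88, 2.69 and 2.88 log2 CPM in hypoxia and 3.87, 3.66, 3.67 and 3.27 in normoxia, with no overlap.

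The pocket proteins Rbl2 (p130, 0.41) and Rbl1 (p107, 0.40) were higher as well. Rb1 was at 0.25, called with the block (adjusted p from limma-trend 0.029), unlike without it (0.067), and E2f4, the repressive E2F of DREAM, was at -0.028 and not called. With block and GC correction Rbl2 remained called (0.31), and Rbl1 (0.19) and Rb1 (0.024) did not.

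Of 7 CDK inhibitors, the brakes on these kinases, 1 was higher and 2 lower (1 and 3 with the block, which added Cdkn2c at -0.24, named after its values were seen), beside 34.6% of all genes called, and a list of 7 is too short to set against that share. The 3 calls became 1 without hypoxia sample 4, normoxia sample 1 or normoxia sample 3. Over all genes these fits called 4004 of 14601, 4187 of 14625 and 4049 of 14583. Cdkn1a (p21) was higher, at 0.20 (limma-trend adjusted p = 0.041). Cdkn1c (p57) was lower, at -0.91, and Cdkn2a (p16 and p19) lower, at -0.49. Cdkn2a measured 5.82, 6.13, 6.11 and 6.11 log2 CPM in hypoxia and 5.34, 5.71, 5.58 and 5.60 in normoxia, so the groups did not overlap, and sample 1 was the lowest of either group. Cdkn1b (p27) was at -0.12 and was not called (adjusted p = 0.28), though it was with block and GC correction (-0.32).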

How the data were processed

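Total RNA of 8 samples, 4 at 2% and 4 at 21% oxygen, was sequenced as single-end reads. Read counts per gene, not normalized, were deposited by the authors, who name zUMIs, STAR, samtools and featureCounts with the mm10 build and Ensembl genes. The settings for strand, introns and reads with several map positions were not given in the sources used here, so reads from overlapping genes cannot be separated. Symbols and positions are from GENCODE M21 (GRCm38), which matched 53360 identifiers. Identifiers without a symbol held 0.00364% of the counts.

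As in the study's methods, genes were kept by filterByExpr with a minimum count of 5 (edgeR 4.0.16, R 4.3.3), which left 14369. Counts were scaled by TMM factors and turned into log2 CPM with a prior count of 3, and limma-trend (limma 3.58.1) compared normoxia with hypoxia, with Benjamini-Hochberg adjustment over all genes and a threshold of 0.05. Differences were taken as normoxia minus hypoxia in log2 CPM, which understates changes of low genes. All tests were two-sided. The edgeR quasi-likelihood test, limma-voom, DESeq2 1.42.0, RLE and upper quartile factors, library totals, no filter, a minimum count of 10, a prior count of 1, a per-library trend on GC content and length (splines with 5 degrees of freedom) and leaving out each sample were the alternatives. The code was tested on simulated data. Total counts were 12898291 to 25132141 per sample, and floors of 3 counts cover counting error only. Replicate samples differed by more than sampling noise, so none was counted as a copy of another.

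Both groups carry the numbers 1 to 4, and the study divided sorted cells between the oxygen levels. Deviations from the group means correlated across genes by 0.47, 0.28, 0.25 and 0.17 for the same-numbered pairs, so the numbers were taken to pair the samples, and a fit with the number as a block was given beside the fit without it.

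The 38 genes and all lists were chosen with earlier results of these data known. Values in every sample were given for the gene with the smallest and the gene with the largest p in each role, and for genes whose groups did not overlap. From the other lists, the 3 largest rises and falls past the threshold were named, with E2f4, Rb1, Rbl1, Rbl2, Cdkn1a, Cdkn1b and Cdkn1c. Per-sample values of Ccne2, Rrm1 and genes outside the 38 were chosen for printing after they were seen.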

Additional observations from a re-analysis of the deposited data

Results flagged for a closer look

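In 3 of 80 sets of 4 samples searched, 1 sample stood far from the other 3 of its group (Dixon's ratio of gap to range, at the 95% level for 4 samples), where chance alone would give about 1 in 20, or 4. All 3 were sample 1 of a group. Cdc6, which loads the Mcm helicase, had 3.21 log2 CPM in normoxia sample 1, with the nearest sample at 2.73 (ratio 0.845). Rrm1, of ribonucleotide reductase, had 7.22 log2 CPM in normoxia sample 1, with the nearest at 6.85 (ratio 0.939). The total count of hypoxia sample 1 was 25132141, with the nearest at 13219647 (ratio 0.976).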

How the results depend on the processing

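Of the 38 genes, 19 were called in no fit, Ccne1 was called in every fit, and 20 reversed direction in some fit without passing the threshold when reversed. The calls were 3 (3 higher, 0 lower) without block, 12 (10 and 2) with the replicate block, 14 (10 and 4) with edgeR and block, 11 (7 and 4) with block and GC correction, 1 with the GC correction alone, 5 with library totals alone, 9 without sample 1 of both groups, and 1 to 11 when each sample was left out. Over all genes the calls were 4970 of 14369 without block, 6610 with it and 6568 with edgeR and block. They were 6202 of 14353 with block and GC correction and 4238 with the GC correction alone. Library totals alone gave 5186 of 14369, and leaving out sample 1 of both groups gave 4978 of 14470. Leaving out each sample gave 3838 to 5423. Beside the calls given with the genes and lists, the block changed no call of a gene whose change is given. The calls among further replication genes were 8 and became 20, 19 (edgeR), 15 and 5 under block, edgeR with block, GC correction with block and GC correction, 14 with library totals, and 5 to 13 without single samples. Those of further mitosis genes were 15 and became 32, 32 (edgeR), 27 and 7, 26 without sample 1 of both groups, and 8 to 26 without single samples. The CDK inhibitors had 5 calls with GC correction and block and 1 to 3 without single samples. The cause of these shifts was not tested. Signs turned as follows. Upper quartile factors gave Mcm2 (-0.0031), Cdt1 (-0.0063), Gins1 (-0.00079) and E2f1 (-0.021). Library totals alone gave Mcm3 (0.053), Mcm5 (0.074), Mcm6 (0.015), Mcm7 (0.071), Uhrf1 (0.049), Ccnb1 (0.053) and Mki67 (0.052). The GC and length correction, with or without block gave Mcm3 (0.010), Mcm4 (-0.044), Mcm5 (0.016), Mcm7 (0.058) and Uhrf1 (0.031). The fit by edgeR gave Cdt1 (-0.011), Gins1 (-0.0035) and Aurka (-0.019). DESeq2 gave Cdt1 (-0.018), Gins1 (-0.013), E2f1 (-0.0025) and Aurka (-0.0099). The fit by limma-voom gave Cdt1 (-0.015), Gins1 (-0.021) and Aurka (-0.048). The fit by edgeR with block gave Cdt1 (-0.0022). Leaving out sample 1 of both groups gave Uhrf1 (0.0062), E2f1 (-0.012), Ccnb1 (0.023) and Mki67 (0.081). RLE factors gave E2f1 (-0.0025). Leaving out single samples moved Aurka from -0.15 to 0.27, Birc5 from -0.39 to 0.057, Ccna2 from -0.44 to 0.014, Ccnb1 from -0.23 to 0.21, Ccnb2 from -0.26 to 0.038, Cdc20 from -0.094 to 0.33, Cdca8 from -0.28 to 0.12, Cdk1 from -0.062 to 0.24, Cdt1 from -0.13 to 0.14, E2f1 from -0.023 to 0.024, Gins1 from -0.066 to 0.12, Mcm2 from -0.057 to 0.13, Mcm3 from -0.15 to 0.074, Mcm5 from -0.17 to 0.12, Mcm6 from -0.17 to 0.019, Mcm7 from -0.12 to 0.061, Mki67 from -0.16 to 0.18, Tyms from -0.25 to 0.010 and Uhrf1 from -0.13 to 0.083.

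Counting error is largest for the rarest genes, Gins1 with 27 to 79 counts per sample and Cdc6 with 44 to 189. The interval of Mki67 without the block, from -0.46 to 0.39, shows the size of change that 4 samples a group could not resolve for a gene with this spread.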
